A study of Mus musculus with 18 samples.

Results

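The ADP/ATP carriers Slc25a31, Slc25a4 and Slc25a5 were followed across liver, brain and testis of Pcgf6 knockout (KO) and wild-type (WT) mice. They were taken by gene name from the 52636 genes in the deposited tables, where all 3 were found once each and were followed in all 18 libraries. The mice were male C57BL/6 animals aged 8 weeks, and the KO is labelled only as PCGF6 KO, with no allele or deleted exon given. Poly-A RNA was sequenced from 3 KO and 3 WT libraries per tissue, which gives 6 groups. In each tissue the KO libraries are called KO 4 to KO 6 and the WT libraries WT 1 to WT 3. No label says whether the libraries of a group came from separate animals, so the p-values below measure only the spread between these libraries.

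ADP/ATP carriers sit in the inner mitochondrial membrane and exchange cytosolic ADP for ATP made in the matrix. Slc25a4 (Ant1) is the form of heart, skeletal muscle and brain, Slc25a5 (Ant2) is the widely expressed form and lies on the X chromosome, and Slc25a31 (Ant4) is the germ line form that male mice need to complete meiosis. Pcgf6 belongs to PRC1.6, a polycomb complex that represses many germ line genes in somatic cells and reaches them through the DNA-binding proteins E2F6 and MGA with its partner MAX. The data therefore address whether the germ line carrier and both somatic carriers differ between KO and WT in each tissue.

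Slc25a31 (ENSMUSG00000069041) lies on mm10 chromosome 3 from 40708855 to 40726096 on the plus strand, and its coding transcript in GENCODE M21 has 6 exons. Slc25a4 (ENSMUSG00000031633) lies on chromosome 8 from 46206797 to 46211284 on the minus strand. Slc25a5 (ENSMUSG00000016319) lies on chromosome X from 36795651 to 36798807 on the plus strand. The coding transcripts of Slc25a4 and Slc25a5 have 4 exons each. The carriers are 320 codons long for Slc25a31 and 298 codons for each of the other two.

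The promoter windows are shown because E2F6 and MGA with MAX bind short motifs. Each window runs from 250 bases before the RefSeq gene start to 50 bases after it, on the gene's own strand (RefSeq, GRCm38.p6, the same assembly as mm10). Capitals mark CACGTG, the E-box of MGA and MAX, and GCGGGAA, the E2F6 motif, which reads TTCCCGC on the other strand. Both strands were searched, and the 2 motifs do not overlap each other.
Slc25a31 chr3:40708621-40708920: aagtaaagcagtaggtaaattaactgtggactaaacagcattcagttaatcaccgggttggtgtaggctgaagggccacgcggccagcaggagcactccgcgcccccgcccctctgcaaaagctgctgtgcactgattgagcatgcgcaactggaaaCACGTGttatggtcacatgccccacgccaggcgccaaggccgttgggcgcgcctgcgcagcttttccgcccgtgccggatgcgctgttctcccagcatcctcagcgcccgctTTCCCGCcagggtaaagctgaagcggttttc
Slc25a4 chr8:46211013-46211312: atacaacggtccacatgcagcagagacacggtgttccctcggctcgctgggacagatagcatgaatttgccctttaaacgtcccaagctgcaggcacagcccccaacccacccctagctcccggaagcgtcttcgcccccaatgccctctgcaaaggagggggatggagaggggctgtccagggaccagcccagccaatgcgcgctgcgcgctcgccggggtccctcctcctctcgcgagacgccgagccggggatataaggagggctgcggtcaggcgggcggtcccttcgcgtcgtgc
Slc25a5 chrX:36795347-36795646: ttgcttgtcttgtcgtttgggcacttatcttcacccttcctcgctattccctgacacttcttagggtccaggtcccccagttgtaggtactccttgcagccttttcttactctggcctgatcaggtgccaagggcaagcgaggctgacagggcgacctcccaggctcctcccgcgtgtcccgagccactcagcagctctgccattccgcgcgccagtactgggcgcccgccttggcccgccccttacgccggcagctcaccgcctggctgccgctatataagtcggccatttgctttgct
The window of Slc25a31 held the E-box at position -93 from the gene start and the E2F6 motif at position 19, on the reverse strand. The windows of Slc25a4 and Slc25a5 held neither run of letters. Of 32817 windows of the same length, 7.15% held the E-box, 4.6% the E2F6 motif and 0.457% both. The Slc25a31 window had 22 CpG dinucleotides, more than 76.9% of all windows, against 25 in the Slc25a4 window and 18 in the Slc25a5 window. A match is a run of letters and does not show that a protein bound there.

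The coding sequences are close relatives, which bears on how reads were divided between the genes. Slc25a31 shared 66.7% of aligned coding bases with Slc25a4 and 66.7% with Slc25a5, and Slc25a4 shared 77.5% with Slc25a5. The longest run of identical bases between Slc25a31 and Slc25a5 was 21 bases. It is shown in capitals with 20 bases on each side (transcripts from GENCODE M21, coding bases 136 to 156 of Slc25a31 and 97 to 117 of Slc25a5).
Slc25a31: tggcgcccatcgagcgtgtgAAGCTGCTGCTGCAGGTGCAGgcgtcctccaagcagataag
Slc25a5: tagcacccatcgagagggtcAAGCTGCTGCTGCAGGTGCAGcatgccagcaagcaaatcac
The longest runs of the other pairs were 14 bases between Slc25a31 and Slc25a4 and 20 bases between Slc25a4 and Slc25a5. A transcribed processed pseudogene, Slc25a5-ps, had 1 and 4 reads in KO and WT testis, 18 and 7 in KO and WT brain, and 7 and 8 in KO and WT liver, summed over 3 libraries.

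Levels are given in FPKM (the deposited unit, fragments per kilobase of gene after scaling for library size), with the reads that each value stands for recovered from the files. The libraries held 18990130 to 23529098 reads. The size that the submitters scaled by was not the plain total, and the total over that size was 0.823 to 0.969 in testis, 0.806 to 0.835 in brain and 1.44 to 1.52 in liver. For this reason levels set across tissues are also given rescaled to the same sum of FPKM in every library. Neuronal and hepatocyte marker genes were highest in the labelled tissue. The sum of 7 neuronal genes was 764 to 861 FPKM in KO brain and 787 to 830.4 in WT brain, against at most 28.3 in any other library. The sum of 8 hepatocyte genes was 56690 to 63827 FPKM in KO liver and 56058 to 64271 in WT liver, against at most 481 elsewhere. Lists for oligodendrocytes, spermatocytes, spermatids and Leydig cells were also highest in their own tissue. The astrocyte and Sertoli cell lists were higher in liver than in their own tissue, and the spermatogonia list was highest in brain. Astrocyte sums averaged 279 FPKM in KO brain and 281 in WT brain, against 414 in KO liver and 419 in WT liver. Pcgf6 itself, the targeted gene, averaged 47.6% of WT in KO testis, 79.3% in KO brain and 39.0% in KO liver. It passed limma's adjusted test in none of the tissues (adjusted p = 0.0638, 1.00 and 0.485 in testis, brain and liver). The KO libraries of each tissue were all lower than its WT libraries. Such separation was found for 4.32% of tested genes in testis, 4.09% in brain and 4.58% in liver.

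Slc25a31, the germ line carrier, rose in KO brain and KO liver and did not pass the test in testis, where it was highest. In testis it measured 28.2, 29.9 and 29.3 FPKM in KO 4 to KO 6, against 28.4, 27.7 and 34.6 FPKM in WT 1 to WT 3. The testis groups overlapped, with WT 3 the highest library. In brain it measured 1.30, 1.17 and 2.29 FPKM in KO 4 to KO 6, against 0.0508, 0.0173 and 0.0172 FPKM in WT 1 to WT 3. The KO brain values rest on 69, 68 and 131 reads and the WT brain values on 3, 1 and 1 reads. In liver it measured 5.72, 2.91 and 5.26 FPKM in KO 4 to KO 6, from 153, 96 and 145 reads. WT liver had 0, 0.123 and 0.0946 FPKM in WT 1 to WT 3, from 0, 4 and 3 reads. The genotypes were far apart in both somatic tissues, with all KO libraries the higher ones. KO 5 was the lowest KO library in each, but same-numbered KO brain and KO liver libraries deviated together over all genes, so these are not independent.

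**Figure D1:**
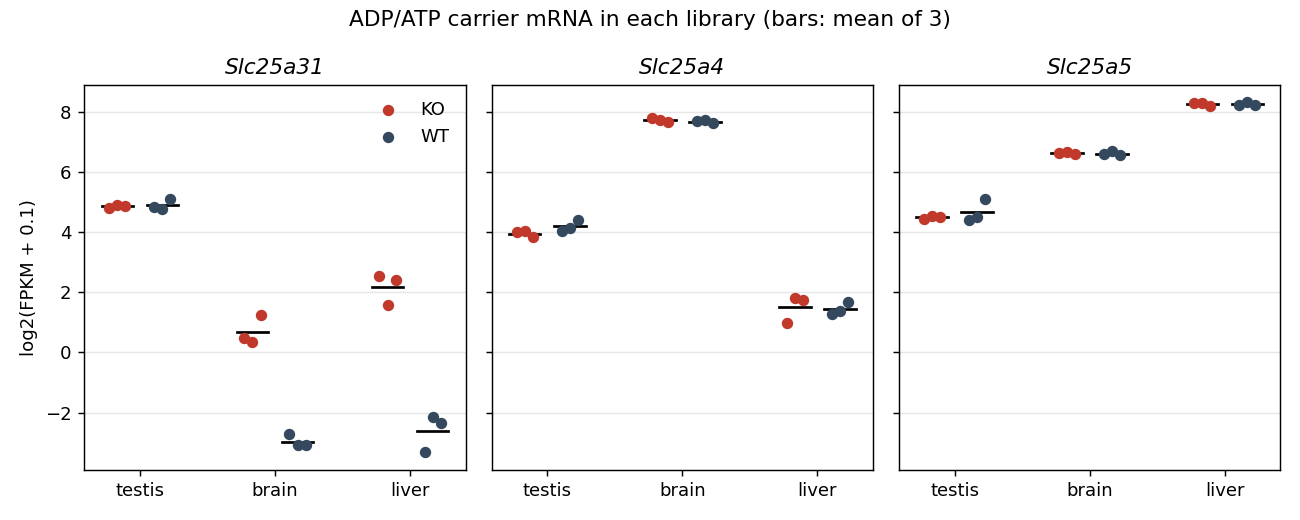
Levels of the 3 carriers in every library, as log2(FPKM + 0.1), by tissue, with KO libraries left of WT libraries; each point is 1 library and each bar the mean of 3. Slc25a31 differs between the genotypes in brain and liver, where WT libraries hold 0 to 4 reads of it, while Slc25a4 and Slc25a5 passed the test between genotypes in none of the tissues; the KO testis libraries of Slc25a4 all lie below the WT testis libraries.

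The mean level of Slc25a31 was 1.59 ± 0.61 FPKM in KO brain and 0.0284 ± 0.0194 in WT brain (SD, n = 3 each), 55.8 times higher in KO. In liver the means were 4.63 ± 1.51 FPKM in KO and 0.0725 ± 0.0644 in WT (SD, n = 3 each), 63.9 times higher in KO. By reads per library total, the ratio of KO to WT was 55.5 in brain with a 95% counting interval of 23.5 to 172, and 58.1 in liver with an interval of 27.9 to 146. These intervals cover counting error only. On the scale of log2(FPKM + 0.1), which understates the change of a gene so near 0, limma gave 3.67 ± 0.26 in brain (SE, adjusted p = 0.00264) and 4.80 ± 0.38 in liver (adjusted p = 0.0203). In the same test 0.0837% of 17922 genes were called in brain and 0.0212% of 14124 in liver. Separation with all KO libraries higher was found for 4.99% of tested genes in brain and 4.94% in liver. The gene passed the read filter in brain and liver through its KO libraries alone. More expressing cells and more RNA per cell in KO cannot be told apart in such bulk samples.

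The brain call held under all 13 alternatives tried, with adjusted p from 1.01e-05 to 0.0387. The liver call held under 5 of 13, with adjusted p from 1.54e-07 to 0.465, and it was lost with the liver libraries paired as a block (limma adjusted p = 0.122) and when WT 2, WT 3, KO 4 or KO 6 was left out. The log2 difference without those libraries was 5.03, 4.93, 4.62 and 4.68 in that order, so the size stayed while the adjusted p moved to between 0.0686 and 0.117.

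In testis the means of Slc25a31 were 29.1 ± 0.89 FPKM in KO and 30.3 ± 3.81 in WT (SD, n = 3 each). The log2 difference was -0.05 ± 0.10 with a 95% interval of -0.29 to 0.20 (limma adjusted p = 0.931), where 0.00448% of 22341 genes were called. The KO effect was lower in testis than in brain, with a difference of -3.72 ± 0.28 on the log2 scale (limma interaction, adjusted p = 7.5e-05, 0.0626% of 15962 genes called). It was also lower in testis than in liver, with a difference of -4.85 ± 0.41 (limma adjusted p = 0.000263, 0.0457% of 13133 genes called). The brain and liver sides of both comparisons passed the read filter through KO libraries alone. Without the filter, a setting added after the data were seen, the differences were -3.72 (limma adjusted p = 0.000422) and -4.85 (adjusted p = 0.0019). The KO effects in brain and liver differed by -1.13 ± 0.50, which did not pass limma's adjustment (adjusted p = 1.00, unadjusted p = 0.0429, with 0% of 12922 genes called and 4.84% under 0.05 unadjusted). After rescaling that difference was -0.13 ± 0.64.

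Set against WT testis, Slc25a31 averaged 5.24% of the WT testis level in KO brain and 15.3% in KO liver. After rescaling the shares were 7.85% in KO brain and 7.68% in KO liver, so the order of brain and liver turned with the scaling. In FPKM the KO brain level was lower than the KO liver level (log2 difference -1.49 ± 0.33, limma adjusted p = 0.00462, a contrast in which 84.2% of 18116 genes were called). KO brain and KO liver libraries of the same number deviated together, and with that number as a block the adjusted p was 0.0016.

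Spermatid transcripts were looked at as markers of testis RNA in these tissues. Of 16 such genes, KO 4, KO 5 and KO 6 of liver had 13, 1 and 0 at 0 reads, and WT 1, WT 2 and WT 3 had 12, 11 and 6. Their summed level was 2.98 to 14.8 FPKM in KO liver, against 3.35 to 4.87 FPKM in WT liver and 23675 to 32105 FPKM in WT testis. The sums in KO 4, KO 5 and KO 6 of liver were 0.0102%, 0.0483% and 0.0507% of the WT testis mean, while Slc25a31 stood at 18.9%, 9.62% and 17.4% of its own. In FPKM, KO 4 of liver had the lowest spermatid sum of the 6 liver libraries and the highest Slc25a31. After rescaling Slc25a31 was 8.18 in KO 4 and 8.28 in KO 6 of liver. Whether testis RNA had a part in the Slc25a31 levels was not tested. In brain the spermatid sums were 6.55 to 19.2 FPKM in KO, against 5.48 to 13.5 FPKM in WT, and 0 to 9 of the 16 genes were at 0 in each genotype. The summed level of 10 spermatocyte markers was 15.2 to 18.1 FPKM in KO brain and 14.6 to 17.4 in WT brain. In liver it averaged 4.08 FPKM in KO and 5.27 in WT, against 797 in WT testis.

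Slc25a4, the carrier of excitable tissues, did not pass the test between KO and WT in any tissue. In testis it measured 16.0, 16.5 and 14.2 FPKM in KO 4 to KO 6, against 16.6, 17.5 and 21.3 FPKM in WT 1 to WT 3. In brain it measured 225, 213 and 206 FPKM in KO, against 208, 215 and 199 FPKM in WT. In liver it measured 1.86, 3.45 and 3.25 FPKM in KO, against 2.34, 2.50 and 3.11 FPKM in WT, from 55 to 126 reads per library. The genotypes overlapped in brain and liver. In testis all 3 KO libraries lay below all 3 WT libraries, which 4.32% of the tested genes did. The log2 differences were -0.24 ± 0.12 in testis (95% interval -0.52 to 0.04), 0.05 ± 0.07 in brain (-0.12 to 0.22) and 0.07 ± 0.25 in liver (-0.53 to 0.66). Their limma adjusted p-values were 0.871 in testis and 1.00 in brain and in liver.

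Slc25a5, the general and X-linked carrier, did not pass the test between KO and WT in any tissue either. In testis it measured 21.6, 23.3 and 22.9 FPKM in KO 4 to KO 6, against 21.4, 22.6 and 34.2 FPKM in WT 1 to WT 3. In brain it measured 99.7, 103 and 98.4 FPKM in KO, against 98.6, 104 and 94.7 FPKM in WT. In liver it measured 321, 319 and 296 FPKM in KO, against 307, 323 and 307 FPKM in WT. The genotypes overlapped in all 3 tissues, and WT 3 of testis stood above the other 5 testis libraries. The log2 differences were -0.17 ± 0.17 in testis (95% interval -0.58 to 0.24), 0.02 ± 0.06 in brain (-0.12 to 0.16) and -0.0025 ± 0.077 in liver (-0.18 to 0.18). Their limma adjusted p-values were 0.871 in testis and 1.00 in brain and in liver.

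WT 3 of testis also had the lowest summed level of spermatid genes, 23675 FPKM against 27484 to 38249 in the other 5 testis libraries. It had the highest sums of Sertoli cell genes (711 FPKM, against 459 to 578) and of Leydig cell genes (762 FPKM, against 454 to 624). Without it the testis log2 difference of KO and WT was 0.05 for Slc25a31, -0.13 for Slc25a4, against -0.24 with all libraries, and 0.04 for Slc25a5. The part of cell composition in the testis values was not tested.

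Across the tissues of WT mice, each carrier had its own order. Slc25a31 was higher in testis than in brain by a log2 difference of 7.89 ± 0.16 and than in liver by 7.53 ± 0.31. Slc25a4 was lower in testis than in brain (log2 difference -3.49 ± 0.11), and higher in testis than in liver by 2.76 ± 0.15 and in brain than in liver by 6.25 ± 0.11. Slc25a5 was lower in testis than in brain (-1.95 ± 0.18) and than in liver (-3.61 ± 0.18). All of these passed limma's test, with adjusted p from 1.48e-08 to 2.85e-05, but so did most genes: 86.1% between testis and brain, 87.7% between testis and liver and 83.9% between brain and liver. The median log2 difference of all genes was 0.42 for testis minus brain, 1.06 for testis minus liver and 0.32 for brain minus liver. After rescaling these medians were -0.12, 2.01 and 1.80.

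Slc25a5 was lower in WT brain than in WT liver in FPKM (log2 difference -1.66 ± 0.07, limma adjusted p = 6.07e-07), while the difference was -0.14 ± 0.08 after rescaling (limma adjusted p = 0.128). Its rescaled levels were 439 ± 16.3 in WT brain and 485 ± 37.1 in WT liver (SD, n = 3 each), against 78.1 ± 23.6 in WT testis. Slc25a31 had 12 reads over the 6 WT brain and WT liver libraries, so the order of those 2 tissues was not tested for it. The other directions above were the same with and without rescaling.

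The makeup of the carrier pool within a library needs no scaling between libraries. Slc25a31 made up 43.3 ± 0.74% of the summed FPKM of the 3 carriers in KO testis and 40.7 ± 2.17% in WT testis (SD, n = 3 each). Its share was 0.505 ± 0.209% in KO brain and 0.00928 ± 0.0063% in WT brain. It was 1.46 ± 0.486% in KO liver and 0.0227 ± 0.020% in WT liver. In all 3 tissues the KO libraries had the larger Slc25a31 shares, without overlap, with an exact two-sided permutation p of 0.1 in each, the smallest that 3 against 3 libraries can give and too large to pass 0.05. In testis the KO libraries held 42.9, 42.9 and 44.2% and the WT libraries 42.8, 40.9 and 38.4%, so the groups lay close together. The difference of the testis means was 2.59 points, and it was 1.46 points without WT 3 and 3.63 points without WT 1.

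Slc25a5 filled nearly the whole pool in liver, with 97.6 ± 0.42% in KO and 99.1 ± 0.15% in WT. Slc25a4 led in brain, with 67.8 ± 1.05% in KO and 67.7 ± 0.23% in WT. The KO liver libraries differed in the order of Slc25a31 and Slc25a4. In KO 4 and KO 6 of liver the Slc25a31 share (1.74 and 1.73%) was above the Slc25a4 share (0.567 and 1.07%), while in KO 5 it was below (0.894 against 1.06%). In the 3 WT liver libraries Slc25a31 held 0 to 0.0378% and Slc25a4 0.756 to 1.00%.

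**Figure D2:**
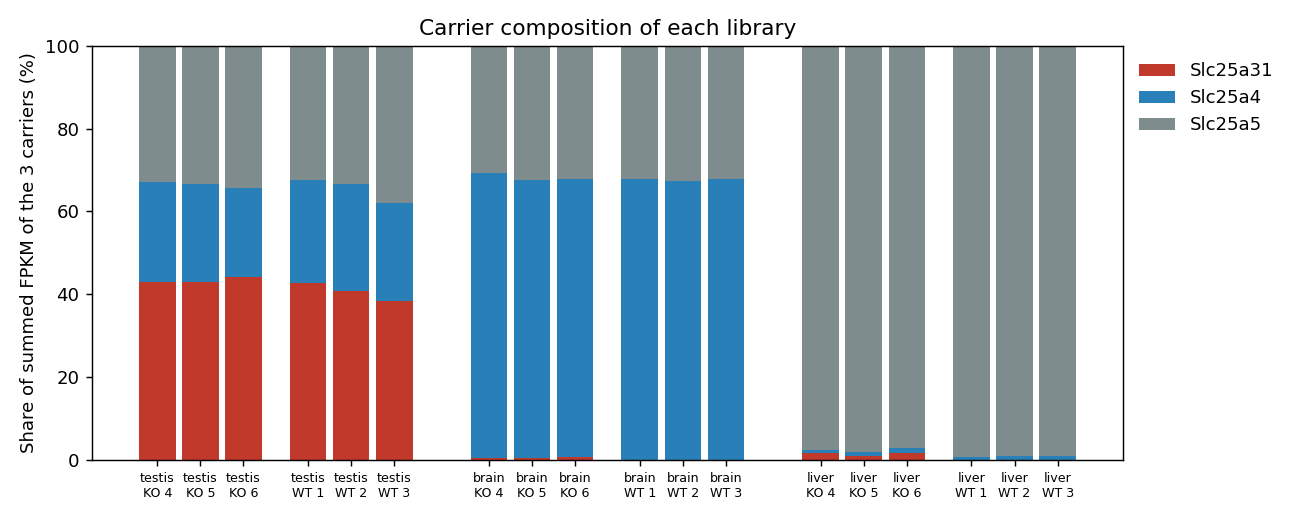
Share of the summed FPKM of the 3 carriers held by each carrier, in percent, with 1 bar per library, grouped by tissue with KO libraries left of WT libraries. Slc25a31 holds 38.4 to 44.2% in testis and under 2% elsewhere, Slc25a4 leads in brain and Slc25a5 in liver.

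The balance of the somatic carriers and the size of the pool did not differ between the genotypes by more than their spread. Slc25a4 made up 40.7 ± 2.16% of the Slc25a4 and Slc25a5 sum in KO testis and 41.9 ± 3.04% in WT testis (exact permutation p = 0.5). In brain the share was 68.1 ± 1.00% in KO and 67.7 ± 0.24% in WT (exact permutation p = 0.8), and in liver 0.911 ± 0.289% in KO and 0.842 ± 0.138% in WT (exact permutation p = 0.8). The 3 carriers summed to 67.3 ± 2.18 FPKM in KO testis and 74.8 ± 13.3 in WT testis (exact permutation p = 0.5), to 316 ± 9.42 in KO brain and 306 ± 12.6 in WT brain (p = 0.5), and to 319 ± 12.8 in KO liver and 315 ± 8.92 in WT liver (p = 0.9).

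Which carrier leads in testis depends on the gene length used. The deposited lengths of Slc25a4 and Slc25a5 are 1.22 and 1.33 times those of their coding transcripts, while that of Slc25a31 is equal to it. With transcript lengths, a setting chosen after the data were seen, Slc25a5 led with 38.4 ± 0.94% in KO testis and 39.2 ± 3.16% in WT testis. Slc25a31 then held 37.3 ± 0.67% in KO testis and 34.9 ± 2.09% in WT testis.

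Among 52 mitochondrial carrier genes, a family that moves metabolites across the inner membrane, Slc25a31 ranked 4 by mean FPKM in KO testis and in WT testis. It ranked 37 in KO brain and 51 in WT brain, and 31 in KO liver and 47 in WT liver. Slc25a4 ranked 1 in brain of both genotypes, 9 in testis of both, and 35 in KO liver and 34 in WT liver. Slc25a5 ranked 3 in brain of both genotypes, 8 in KO testis and 6 in WT testis, and 2 in KO liver and 1 in WT liver. The carrier above it in KO liver was Slc25a47, a liver carrier, at 375 FPKM in KO and 261 in WT (limma adjusted p = 0.63). The leading carrier of testis was Slc25a39, needed for glutathione import into mitochondria, at 171 FPKM in KO and 166 in WT.

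The tissue pattern of Slc25a31 was shared by a minority of the other carriers. Of the 48 other carriers tested, 12 (25.0%) were higher in WT testis than in both WT brain and WT liver, against 44.9% of all genes, and 16 (33.3%) were lower than in both, against 17.0% of all genes. These counts were not rescaled. With rescaling the all-gene median moved from 0.42 to -0.12 for testis minus brain and from 1.06 to 2.01 for testis minus liver. Slc25a2, an ornithine carrier, Slc25a41 and Slc25a54, relatives of the ATP-Mg/phosphate carriers, came nearest to Slc25a31. Their log2 differences were 7.46, 6.68 and 6.51 for testis minus brain, and 6.82, 7.27 and 6.59 for testis minus liver. The phosphate carrier Slc25a3, which brings in the phosphate for ATP synthesis, went with Slc25a5, at -1.03 and -1.47. Between KO and WT, 0 of 48 other carriers were called in testis, 0 of 43 in brain and 0 of 43 in liver by limma. With 0.00448%, 0.0837% and 0.0212% of all genes called in testis, brain and liver, a count of 0 in a list of this size is near the background and tells nothing of the carriers in particular. Their median log2 differences were 0.01, 0.04 and -0.03, against 0.03, 0.01 and 0.00 for all genes. Slc25a2, Slc25a41 and Slc25a54 had too few reads for a test in KO and WT brain and liver, with means of at most 0.15 FPKM.

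**Figure D3:**
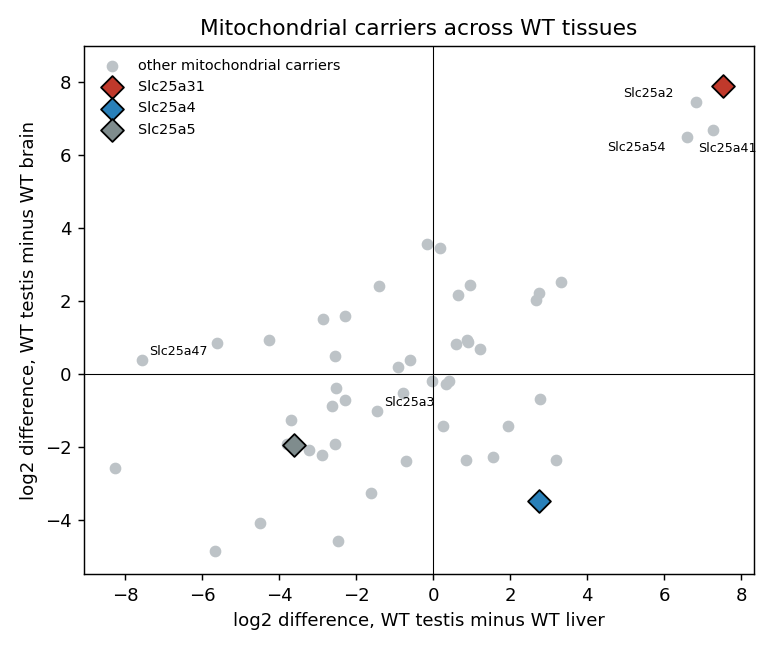
Log2 differences of mitochondrial carrier genes between WT tissues, testis minus liver on the x axis and testis minus brain on the y axis; grey points are other carriers and diamonds the 3 ADP/ATP carriers. Slc25a31 lies at the upper right with Slc25a2, Slc25a41 and Slc25a54, Slc25a5 at the lower left, and Slc25a4 is higher in testis than in liver but lower than in brain.

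Most genes of ATP synthase, the enzyme that makes the ATP the carriers export, were lower in WT testis than in WT liver. Between the genotypes, 17 subunits and associated genes of ATP synthase were tested in each tissue, of which limma called 0 in testis, brain and liver. At the shares of all genes called (0.00448%, 0.0837% and 0.0212%), 0 of so short a list is near the background. Their median log2 differences between KO and WT were -0.08, -0.02 and 0.03. Partners of ADP/ATP exchange, such as the outer membrane channels and kinases that receive the ATP, had 0 called of 15 in testis, 0 of 15 in brain and 0 of 14 in liver, near the same background, with medians of 0.00, 0.00 and -0.04. In WT mice 16 of 17 ATP synthase genes were called lower in testis than in liver (median -1.86, against 29.9% of all genes called lower), and 12 lower in testis than in brain (median -0.80, against 35.9%). The catalytic subunit Atp5b, for example, averaged 129 FPKM in WT testis, 244 in WT brain and 461 in WT liver. These levels were not rescaled, so they do not settle the order of brain and liver. The medians of the list across tissues were not rescaled either, while the all-gene median of testis minus liver moved from 1.06 to 2.01 with rescaling.

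Testis forms of mitochondrial proteins were mostly highest in testis, as Slc25a31 was. The list was drawn up of genes held to be testis forms, so its counts across tissues describe the list and are no support for it. All 14 tested genes were called higher in WT testis than in WT liver (median 9.39), and 14 of 15 higher than in WT brain (median 8.57). Of all genes, 57.8% were called higher than in liver and 50.1% higher than in brain. Among them were Cox8c, a subunit of cytochrome c oxidase, at 555 FPKM in WT testis, and Ldhc, the lactate dehydrogenase of sperm, at 1653 FPKM. The gene that was lower than in brain was Ckmt1, the mitochondrial creatine kinase, at 0.119 FPKM in WT testis and 57.0 in WT brain. These levels go against the name of the list for Ckmt1. Ckmt1 and Hk1 also stand in the list of partners of ADP/ATP exchange. Between KO and WT, limma called 0 of 14 in testis, 0 of 7 in brain and 0 of 4 in liver (medians 0.02, 0.15 and 0.08). With 0.00448%, 0.0837% and 0.0212% of all genes called, these counts are near the background, and few of the genes had reads enough for a test in brain and liver. Whether Slc25a31 differed from them in its KO effect was not tested. Gpat2, an acyltransferase of germ cell mitochondria, had the largest difference in brain, at 1.22 FPKM in KO and 0.21 in WT (log2 difference 2.16, limma adjusted p = 0.138). Cyct, the testis cytochrome c, stood at a mean of 0.075 FPKM in KO brain and in WT brain, and was listed at 0 in all KO liver libraries, against a mean of 0.0342 FPKM in WT liver.

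Slc25a31 is one of several autosomal genes that stand in for an X-linked gene during meiosis, when the X chromosome of male germ cells is silent. Of 8 such pairs, the autosomal copy had the higher mean FPKM in WT testis in all 8. Slc25a31 and Slc25a5 were the closest pair, at 30.3 and 26.1 FPKM, and their order turned with transcript lengths, at 30.3 and 34.6. For the glycolytic enzyme phosphoglycerate kinase, Pgk2 and Pgk1 measured 346 and 8.20 FPKM in WT testis. For the pyruvate dehydrogenase subunit, Pdha2 and Pdha1 measured 68.0 and 1.58 FPKM. For the ribosomal protein, Rpl10l and Rpl10 measured 140 and 24.8 FPKM. In KO liver Pgk2, Pdha2 and Rpl10l measured 0.113, 0.00914 and 0.0252 FPKM, and in KO brain 0.0309, 0.0262 and 0.0241, too few reads for a test. Of the 14 other genes of these pairs, limma called 0 of 14 tested in testis, 0 of 9 in brain and 0 of 9 in liver between KO and WT, near the background of 0.00448%, 0.0837% and 0.0212% of all genes.

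The other germ line genes of the PRC1.6 list (22 without Slc25a31) were tested in part, since many had too few reads. In brain 13 were tested, 10 were higher in KO and 2 were called, and the list's median log2 difference was 0.33 against 0.01 for all genes. In liver 7 were tested, 6 were higher in KO and 2 were called, with a median of 1.88 against 0.00. Of all tested genes, 0.067% were called higher in KO brain and 0.0212% in KO liver. The liver share is 3 genes, which are Slc25a31 and the 2 called list members, so it is not a separate background. In testis all 22 were tested and 0 were called (median -0.04 against 0.03). The genes called in both somatic tissues were Mael, which protects germ cells from transposons, and Syce1, a part of the synaptonemal complex. A gene that passed the filter only through its KO libraries had to differ, so these counts describe the list and are no support for it. Of 20 list members with a promoter window, 10 held the E-box, 8 the E2F6 motif and 4 both, against 8.09%, 5.29% and 0.514% of 27025 genes. The list was drawn up from genes known as targets, and with earlier results of these data known. Its counts, medians and motif shares are therefore a description. Of the 5 genes closest in level to Slc25a31 over the brain and liver libraries, 4 had a window, of which 1 held the E-box and 0 the E2F6 motif.

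Mael was also the gene whose level followed that of Slc25a31 most closely. Over the 18 libraries Pearson's r of log2(FPKM + 0.1) was 0.987 for Mael, 0.954 for Syce1, 0.942 for Tex11, a meiotic gene, 0.916 for Rbm46, a germ cell RNA-binding protein, and 0.910 for Mesp2, among 21321 genes. The libraries fall into 3 tissues, and points of a tissue share its scaling, so r describes the tissue pattern above all. Within the 12 brain and liver libraries the closest genes were Mael (0.961), Xlr4b (0.948), Tex11 (0.932), Syce1 (0.931) and 8030474K03Rik (0.861). In both tissues Slc25a31 was near 0 in WT and higher in KO, so these r values describe the split by genotype above all. Mael measured 10.3, 6.11 and 10.5 FPKM in KO 4 to KO 6 of brain, against 0.0624, 0 and 0.211 in WT 1 to WT 3. It measured 18.8, 8.82 and 17.5 FPKM in KO 4 to KO 6 of liver and had no read in any WT liver library. In FPKM, KO 5 was the lowest KO library for Mael and for Slc25a31 in both tissues, and KO 4 the highest in liver for both. After rescaling Slc25a31 was 8.18 in KO 4 and 8.28 in KO 6 of liver, so the order of these libraries depends on the scaling.

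The somatic carriers had other companions. The genes closest to Slc25a4 were Tceal3, Ndrg4, Palm, Clip3 and Cacng4 (r of 0.998 for each), all highest in brain. Those closest to Slc25a5 were mt-Cytb, Atp5a1, Cyc1, Glud1 and Atp5g3 (r of 0.998 for each), which encode parts of the respiratory chain and of ATP synthase and, in Glud1, glutamate dehydrogenase of the matrix. Between the carriers r was -0.191 for Slc25a31 and Slc25a4, -0.679 for Slc25a31 and Slc25a5 and -0.352 for Slc25a4 and Slc25a5. All of these r values are over the 18 libraries in FPKM without rescaling, so they too describe the tissue pattern and its scaling above all.

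The tested genes around Slc25a31 had small differences between KO and WT in brain and liver. Within 250 kb lay 15 other genes, of which 13 were tested in testis, 10 in brain and 8 in liver, and limma called 0 in each. So few genes would give 0 calls at the background of 0.00448%, 0.0837% and 0.0212% of all genes, so the counts say nothing particular of the neighbours. Their log2 differences lay between -0.18 and 0.56 in testis, between -0.08 and 0.17 in brain, and between -0.15 and 0.10 in liver. Intu, a planar cell polarity gene whose end lies 4081 bases before Slc25a31, measured 1.44 ± 0.09 FPKM in KO brain and 1.34 ± 0.09 in WT brain (SD, n = 3 each). In liver Intu measured 1.04 ± 0.02 FPKM in KO and 1.07 ± 0.22 in WT. Hspa4l, a chaperone that is itself high in testis, starts 18399 bases after Slc25a31 and measured 18.9 ± 0.22 FPKM in KO brain and 18.2 ± 1.14 in WT brain. Around Slc25a4 0 of 11, 6 and 7 tested genes were called in testis, brain and liver, and around Slc25a5 0 of 7, 6 and 7, again near that background.

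**Figure D4:**
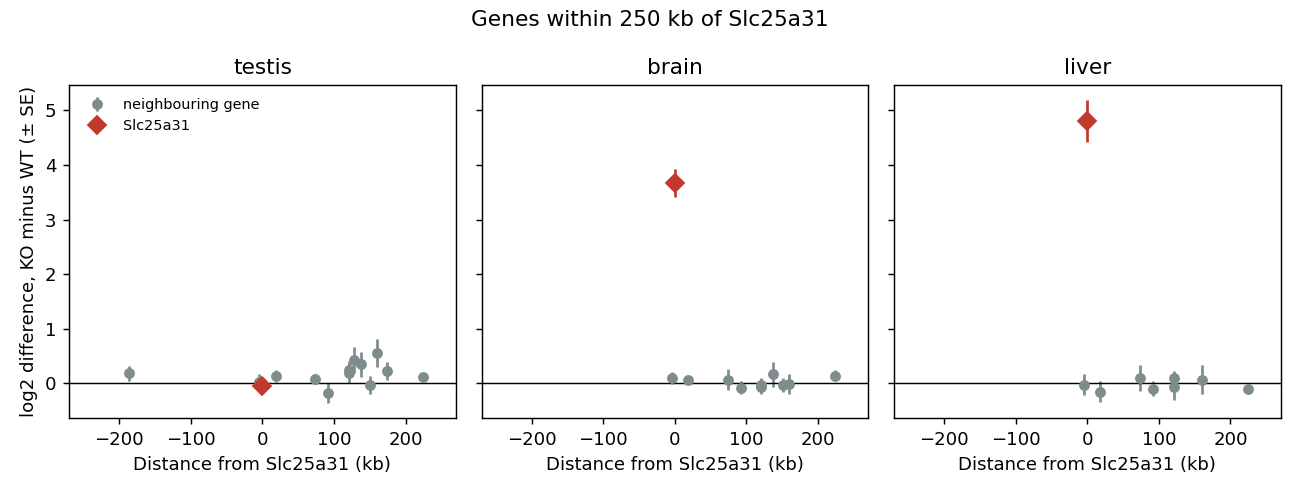
Log2 difference of KO and WT, with its SE, for Slc25a31 (diamond) and the tested genes within 250 kb (grey), against distance from Slc25a31 in kb, in testis, brain and liver. In brain and liver Slc25a31 stands at 3.67 and 4.80 while its neighbours lie between -0.15 and 0.17; in testis all lie between -0.18 and 0.56.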

How the data were processed

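Poly-A RNA of 18 libraries was measured. The authors deposited FPKM per gene; the submitters' processing notes name HISAT2 2.0.5, featureCounts 1.5.0-p3, DESeq2 1.16.1 and the build mm10. The annotation release and filters are not given in the sources used here. Every deposited FPKM times gene length came to whole multiples of 1 unit (tolerance 0.01 reads), which gave back the reads. As the deposited unit is not counts, edgeR was not run. limma 3.58.1 (R 4.3.3) with a mean-variance trend was run on log2(FPKM + 0.1) over genes reaching 10 reads in 3 or more of the 6 libraries (in both tissues for interactions), with Benjamini-Hochberg adjustment and calls at an adjusted p under 0.05. The limma step was also run on simulated reads of KO and WT libraries, with results not given here. Shares and sums had two-sided exact permutation tests (Python 3.11.15, scipy 1.17.1). Intervals are at 95%.

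The members and lists were chosen with earlier results of these data known. Named are the 3 carriers, Pcgf6, genes within 250 kb, pseudogenes, the 5 most alike in level (mean of at least 1 FPKM in a group) and, of each list, up to 4 called members and the 2 highest; other list members were named after their values were seen. Numbers in the names of the deposited files pair the liver libraries (correlations of same-numbered deviations 0.343, 0.127 and 0.302), but not those of brain or testis. Numbers in the titles pair KO brain with KO liver (0.116, 0.104 and 0.173). For the other pairs of tissues not every correlation passed 0.1. Over all pairs of tissues the same-numbered library was the best partner in 17 of 18 cases, so same-numbered libraries may not be independent. The main fits across tissues and the interactions did not model these numbers. With title numbers as a block, the KO effect on Slc25a31 in testis minus liver had a limma adjusted p of 0.00274. Alternatives were the pseudocount, the filter, rescaling to a common sum, voom, a fit over all 18 libraries, replicate blocks, leaving out each library and, added after seeing the data, transcript length, interactions without the filter and a block of title numbers for KO libraries.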

Additional observations from a re-analysis of the deposited data

Results flagged for a closer look

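The KO effect on Slc25a31 differed between testis and both somatic tissues. The log2 difference of KO and WT was lower in testis than in liver (difference -4.85 ± 0.41, SE, limma interaction, adjusted p = 0.000263) and lower in testis than in brain (-3.72 ± 0.28, adjusted p = 7.5e-05). In brain and liver the gene passed the read filter through its KO libraries alone, since WT libraries held 0 to 4 reads, so the somatic side of these differences was in part fixed by the filter. Without the filter the differences were -4.85 against liver (limma adjusted p = 0.0019) and -3.72 against brain (adjusted p = 0.000422). In testis KO 4 to KO 6 overlapped with WT 1 to WT 3, while in brain and liver KO was the higher without overlap. The cause was not tested.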

How the results depend on the processing

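Over 35 results and 455 alternatives, 418 kept direction and side of the threshold. This count includes the carrier shares and sums, whose exact tests could not pass the threshold in any setting with so few libraries. For those results only the direction could change, so their unchanged side of the threshold carries no information. Slc25a31 stayed called in brain throughout (log2 1.31 to 5.48). In liver its call was lost with a pseudocount of 0.01 (6.43, adjusted p = 0.465), without the filter (4.80, 0.0634), with voom (6.04, 0.276) and with the replicate block (4.80, 0.122); leaving out 1 library gave 4.45 to 5.10, called in 2 of 6. The KO effect on Slc25a31 in testis minus liver was -6.47 with a pseudocount of 0.01 (adjusted p = 0.0991). Slc25a5 in brain minus liver of WT mice was -0.14 after rescaling (adjusted p = 0.128). The cause was not tested. The block changed no other call.

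Differences near 0 changed sign. Rescaling gave 0.034 for the KO effect on Slc25a4 in brain minus liver, and reads per library total, not per length, gave -2.45 for the carrier sum in liver. Leaving out 1 library gave, for KO minus WT, -0.091 to 0.34 for Slc25a4 in liver, -0.023 to 0.034 for Slc25a5 in liver, -0.013 to 0.054 for Slc25a5 in brain, -0.11 to 0.053 for Slc25a31 in testis and -0.30 to 0.038 for Slc25a5 in testis. For the KO effect it gave -0.30 to 0.040 (Slc25a5, testis minus liver), -0.32 to 0.019 (Slc25a5, testis minus brain), -0.29 to 0.14 (Slc25a4, brain minus liver) and -0.016 to 0.056 (Slc25a5, brain minus liver). For the Slc25a4 share of the somatic pair the differences lay between -0.018 and 0.236 points (liver), -0.119 and 0.797 (brain), and -2.88 and 0.0857 (testis). For the carrier sum it gave -0.064 to 11.7 FPKM in liver and -11.7 to 0.172 in testis. With 2 against 3 libraries these exact tests cannot pass 0.05. Slc25a31 in brain minus liver of WT mice had too few reads for a value. WT levels of Slc25a31 in brain and liver rest on 5 and 7 reads, so depth limits how exactly its ratios are known.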
